A study of Mus musculus with 6 samples.

Results

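Transcripts of 32 genes of glycolysis and of the hypoxia response were examined in the cortex of newborn mice that carry 1 disrupted copy of Npas3. The genes were taken by name and not by a cut on measured values, though with earlier results of these data known, as 21 glycolytic enzymes and transporters and 11 genes of the hypoxia response. All 32 were among the 53379 genes of the count table and among the 21244 that passed the filter on low counts. The samples were 3 Npas3+/- and 3 wild-type (WT) libraries of total RNA from postnatal day 0 cortex, all of strain C57BL/6. The sources used here do not describe the Npas3 allele. Whether each library came from an animal of its own is not given either, and the p-values then cover only the spread between the libraries at hand. Table columns marked NP were taken as Npas3+/-, the only genotype in the labels beside WT.

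Glycolysis splits glucose into pyruvate in the cytosol and yields ATP, and lactate dehydrogenase and monocarboxylate transporters link pyruvate to the lactate that cells exchange. Several steps have isozymes with preferred cell types in the brain, such as enolase 2 in neurons and aldolase C in astrocytes. When oxygen falls, prolyl hydroxylases such as Egln1 no longer mark hypoxia-inducible factor (HIF) alpha subunits for the Vhl ubiquitin ligase, and the stabilised factor pairs with Arnt and switches on many glycolytic genes together with Vegfa, Bnip3 and others. NPAS3, like the HIF subunits, belongs to the bHLH-PAS transcription factors.

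Total counts ranged from 67378231 to 87811574 per library. Npas3 (ENSMUSG00000021010) stood at 15.0, 14.1 and 8.61 CPM (counts scaled to a common library size) in the Npas3+/- libraries and at 23.4, 28.4 and 25.7 CPM in the WT libraries. The groups did not overlap, and the Npas3+/- mean was 48.6% of WT. Its log2 fold change of -1.04 (standard error, SE, 0.20) did not pass edgeR's quasi-likelihood test after Benjamini-Hochberg adjustment over all genes (adjusted p = 0.27), and passed in DESeq2 (adjusted p = 0.000175). The 8 markers of cortical projection neurons were all detected, with a summed level of 2116 to 2957 CPM in Npas3+/- and 2128 to 2381 CPM in WT. Of these, 6 had a positive log2 fold change, and Neurod6 and Emx1 were higher at an unadjusted edgeR p under 0.05, beside 6.29% of all genes. Of 12 markers of the striatum and ganglionic eminence, a neighbouring region, 11 had a negative log2 fold change, with a median of -1.27. At an unadjusted edgeR p under 0.05, 5 of the 12 were lower, beside 5.84% of all genes. The summed level of the 12 was 84.3 to 148 CPM in Npas3+/- and 96.2 to 269.6 CPM in WT, so the ranges overlapped. EdgeR called none of these markers after adjustment, and their part in the results was not tested.

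None of the 32 genes passed an adjusted p of 0.05 in edgeR, where 8 genes of all tested did (0.0377%). None passed in DESeq2 either, which called 511 of the 15051 genes to which it gave an adjusted p (3.4%), or in limma-voom. At an unadjusted p under 0.05, edgeR listed 4 of the 32, beside 12.1% of all genes. Of these, Vegfa and Ndrg1 were higher in Npas3+/- (6.29% of all genes were listed as higher), and Gpi1 and Aldoc were lower (5.84%). The values of the 3 Npas3+/- and the 3 WT libraries did not overlap for 4 of the 32, beside 18.9% of all genes. Pfkm, Vegfa and Bnip3 lay wholly above WT (9.7% of all genes did), and Gpi1 wholly below it (9.18%). The share listed at an unadjusted p was near that of all genes, and the share without overlap was below it, most so for genes wholly below WT.

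The median log2 fold change was -0.02 over the 21 glycolytic genes and 0.12 over the 11 hypoxia genes, beside -0.01 over all genes tested. Of the glycolytic genes, 8 had a positive and 13 a negative log2 fold change, and of the hypoxia genes 7 had a positive and 4 a negative one. Single libraries moved both medians. Without Npas3+/- replicate 3 the glycolytic median was -0.08, and it was -0.05 without WT replicate 1, -0.01 without WT replicate 2 and 0.00 without Npas3+/- replicate 2. It was -0.03 with upper-quartile scaling and -0.05 with a correction for GC content. Without WT replicate 2 the hypoxia median was 0.03, and it was 0.03 without Npas3+/- replicate 3, 0.05 without Npas3+/- replicate 2 and 0.06 without Npas3+/- replicate 1. It was also 0.05 with a filter at 1 CPM, which left out Adm.

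**Figure D1:**
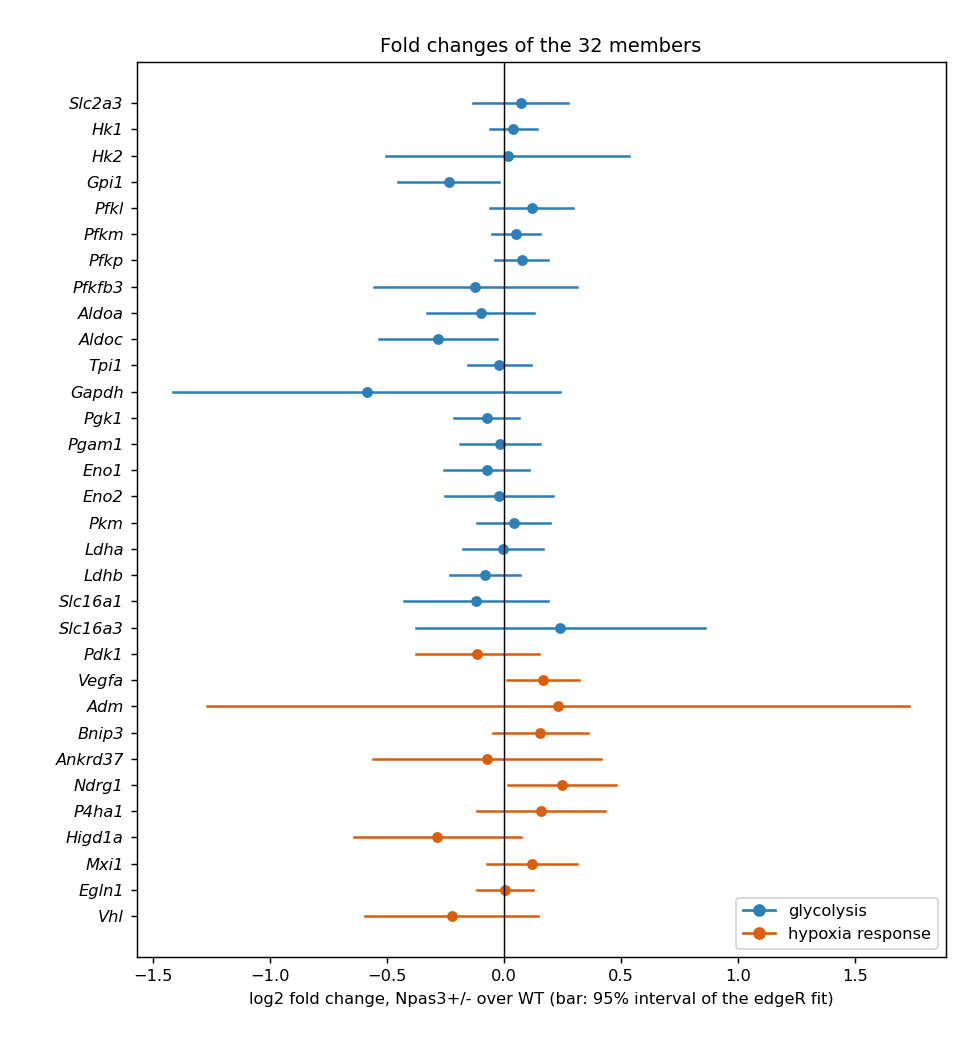
Log2 fold change of Npas3+/- over WT (x axis) for each of the 32 genes (y axis, in pathway order), with points for the edgeR estimate and bars for its 95% interval. Only the intervals of Gpi1, Aldoc, Vegfa and Ndrg1 leave out 0 before adjustment, and the widest belong to Adm, with 14 to 48 counts per library, and to Gapdh, whose libraries spread widely.

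Levels can be set side by side between genes only per length, and here they are CPM per kilobase (kb) of annotated exon, with all exons of a gene merged. On this scale Pgam1 and Pkm were the highest in WT, at 84.5 and 83.6 CPM per kb. Pgk1, Pfkp, Ldhb and Ldha followed at 68.0, 67.5, 66.1 and 59.4 CPM per kb. Pgam1 and Pkm did not differ beyond the SD of Pkm over the WT libraries (7.26), and neither did Pgk1, Pfkp and Ldhb among each other beyond that of Pgk1 (4.03). The lowest were Hk2, Slc16a3 and Adm, at 0.622, 0.274 and 0.237 CPM per kb. The order of the genes and the gaps between them depend on the lengths used. The merged exons of Pfkp span 13.4 kb and its main transcript 4145 bases, while those of Pgam1 span 1.98 kb and its main transcript 1775 bases. The order by length of the main transcript was not tested. The level per length of Gapdh was 2.56 CPM per kb, far below the enzymes on either side of it in the pathway.

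**Figure D2:**
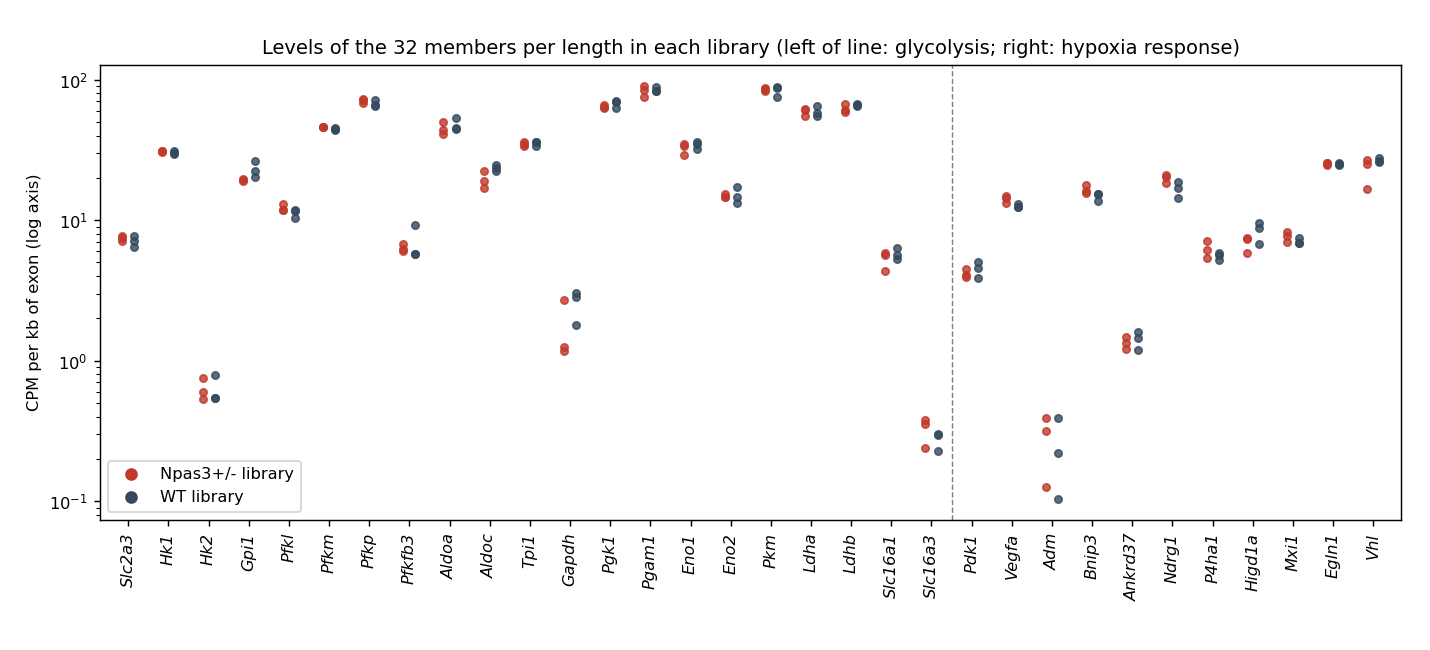
Level of each of the 32 genes in CPM per kb of exon (y axis, log scale) in each library, with Npas3+/- and WT libraries in separate colours and genes in pathway order along the x axis. The levels of a gene overlap between genotypes for most genes, and Gapdh sits far below its neighbours Tpi1 and Pgk1.

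Glucose enters neurons mainly through the transporter encoded by Slc2a3 and is trapped in the cell by hexokinase. Slc2a3 stood at 56.3, 51.2 and 53.9 CPM in Npas3+/- and at 51.3, 56.1 and 46.3 CPM in WT. The groups overlapped, and the log2 fold change of 0.07 (SE 0.09) was the largest of this step. Hk1, the hexokinase of brain that sits on mitochondria, was at 265, 264 and 262 CPM in Npas3+/- and at 264, 256 and 250.4 CPM in WT. It varied little in any library, and the interval of its fold change ran from 0.958 to 1.10. Hk2, the inducible hexokinase, was low, with 3.19 to 4.48 CPM in Npas3+/- and 3.22 to 4.68 CPM in WT, and a log2 fold change of 0.02 (SE 0.22).

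Gpi1 (ENSMUSG00000036427, mm10 chr7:34201330-34230336, minus strand) encodes glucose-6-phosphate isomerase, which turns glucose 6-phosphate into fructose 6-phosphate. Its levels were 124, 128 and 126 CPM in Npas3+/- and 130.3, 169 and 145 CPM in WT. All 3 Npas3+/- libraries lay below all 3 WT libraries, and WT replicate 1 lay close to them. The means were 126 ± 2.1 and 148 ± 19.7 CPM (SD, n = 3 each), with a log2 fold change of -0.24 (SE 0.09, edgeR adjusted p = 0.373). Without WT replicate 2, the highest library, it was -0.13.

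Phosphofructokinase commits sugar to glycolysis, and its subunits are encoded by Pfkl, Pfkm and Pfkp, named after liver, muscle and platelet. Pfkp, the most abundant of them, was at 922, 982 and 955 CPM in Npas3+/- and at 883, 955 and 877 CPM in WT. WT replicate 2 lay within the Npas3+/- range, and the log2 fold change was 0.07 (SE 0.05, edgeR adjusted p = 0.596). Pfkm (ENSMUSG00000033065, chr15:98092589-98132451, plus strand) was at 155, 154 and 154 CPM in Npas3+/- and at 148, 148 and 151 CPM in WT. Its groups did not overlap, but the gap was small, with means of 154 ± 0.593 and 149 ± 1.82 CPM (SD, n = 3 each) and a log2 fold change of 0.05 (SE 0.04, edgeR adjusted p = 0.697). Pfkl ranged from 78.4 to 87.7 CPM in Npas3+/- and from 69.6 to 79.0 CPM in WT, with a log2 fold change of 0.12 (SE 0.08). Pfkfb3 makes the activator fructose 2,6-bisphosphate. It was at 43.4, 43.1 and 70.2 CPM in WT and at 45.8, 46.8 and 51.2 CPM in Npas3+/-. WT replicate 3 alone set its direction, since the log2 fold change was -0.12 with that library and 0.15 without it.

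Aldolase cleaves fructose 1,6-bisphosphate into trioses. Aldoa, the widespread form, was at 127, 119 and 145 CPM in Npas3+/- and at 130.4, 157 and 133 CPM in WT, with overlapping groups and a log2 fold change of -0.10 (SE 0.10). Aldoc (ENSMUSG00000017390, chr11:78322968-78327781, plus strand), the brain form, was at 61.9, 55.0 and 73.5 CPM in Npas3+/- and at 73.3, 77.0 and 81.2 CPM in WT. Npas3+/- replicate 3 reached the level of WT replicate 1, and the other 2 Npas3+/- libraries lay below all WT libraries. The means were 63.5 ± 9.33 and 77.2 ± 3.96 CPM (SD, n = 3 each), a log2 fold change of -0.28 (SE 0.11, edgeR adjusted p = 0.372), which was -0.19 without Npas3+/- replicate 2. Tpi1, which interconverts the 2 trioses, ranged from 93.1 to 99.0 CPM in Npas3+/- and from 92.5 to 99.9 CPM in WT, and the interval of its fold change ran from 0.898 to 1.08.

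Markers of astrocytes and radial glia moved with Aldoc. The log2 fold changes of all 10 were negative, with a median of -0.49. At an unadjusted edgeR p under 0.05, 9 of the 10 were lower, beside 5.84% of all genes. The summed level of these markers was 679, 608 and 781 CPM in Npas3+/- and 964, 1042 and 928 CPM in WT, with no overlap. Within groups the order matched that of Aldoc in Npas3+/-, where replicate 2 was lowest and replicate 3 highest, but not in WT, where replicate 3 had the highest Aldoc and the lowest sum. EdgeR called none of them after adjustment, and DESeq2 called 3. The part of these cells in the Aldoc values was not tested. In bulk tissue, fewer cells of a type and less RNA per cell cannot be told apart.

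Gapdh (ENSMUSG00000057666, chr6:125161715-125166467, minus strand) encodes glyceraldehyde-3-phosphate dehydrogenase, the enzyme that first makes NADH in the pathway and a common reference gene. The reads counted at the gene came to 5.17, 11.2 and 4.81 CPM in Npas3+/- and 12.6, 7.40 and 11.8 CPM in WT. The groups overlapped, the spread was wide, and the log2 fold change of -0.59 (SE 0.36, edgeR adjusted p = 0.563) was the largest in size of the 32 genes. It was -1.08 without Npas3+/- replicate 2 and -0.37 without Npas3+/- replicate 3.

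Most reads of this sequence were counted at copies of Gapdh elsewhere in the genome. In the annotation, 89 genes shared at least 100 windows of 50 bases with Gapdh transcripts, and 22 of them had a mean of at least 1 CPM. Together they held 685, 704 and 728 CPM in Npas3+/- and 674, 752 and 754 CPM in WT, and the Gapdh gene itself held 1.22% of the family's reads. Of the main transcript's own 50-base windows, 82.5% also occurred in transcripts of other genes. The highest copies were processed pseudogenes: Gm7336 at 146 CPM, Gm5559 at 88.1 CPM, Gm2606 at 75.9 CPM, Gm13394 at 62.0 CPM, Gm12070 at 58.8 CPM and Gm12671 at 44.7 CPM.

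The coding sequence shows how alike they are. Over the 999 coding bases, Gm7336 and Gm12671 had 0 differences from Gapdh. Gm5559 differed by T385A, Gm2606 by C583T, Gm13394 by A346C and Gm12070 by G361A, with positions counted from the A of the Gapdh start codon, the Gapdh base first and the copy's base last. Bases 266 to 385 are shown for Gapdh and 4 copies, since 3 of these differences fall in them. Capitals mark a base that differs from Gapdh. Of the 89 copies, 23 held these 120 bases unchanged.
Gapdh: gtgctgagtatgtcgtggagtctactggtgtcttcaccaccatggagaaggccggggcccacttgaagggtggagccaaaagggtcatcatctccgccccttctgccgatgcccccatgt
Gm7336: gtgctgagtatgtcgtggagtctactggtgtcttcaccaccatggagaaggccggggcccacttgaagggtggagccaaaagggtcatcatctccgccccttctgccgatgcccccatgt
Gm5559: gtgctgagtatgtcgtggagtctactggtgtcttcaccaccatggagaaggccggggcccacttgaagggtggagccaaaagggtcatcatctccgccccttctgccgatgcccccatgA
Gm13394: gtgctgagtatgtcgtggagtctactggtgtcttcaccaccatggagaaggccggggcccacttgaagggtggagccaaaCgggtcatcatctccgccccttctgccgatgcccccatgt
Gm12070: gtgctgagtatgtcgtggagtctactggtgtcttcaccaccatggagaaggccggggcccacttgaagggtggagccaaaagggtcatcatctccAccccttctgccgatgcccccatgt

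Summed over the gene and its copies, the family stood at 691, 716 and 733 CPM in Npas3+/- and at 687, 760 and 766 CPM in WT. WT replicate 1 was the lowest of all 6 libraries, and the groups overlapped. The log2 fold change of the sum was -0.05 (SE 0.05, 95% interval -0.17 to 0.08, edgeR adjusted p = 0.773). The reads counted at the gene were a small part of this sum. Since most windows of the main Gapdh transcript also occur in other genes, reads counted at the copies may come from Gapdh mRNA. The sum therefore describes the gene and its copies together, and does not give the difference at the gene alone. Which of them the reads came from was not tested. How the authors counted reads that match several places is not given in the sources used here, and if such reads were counted at each match the sum holds some more than once. The sum was added after the data had been seen.

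**Figure D3:**
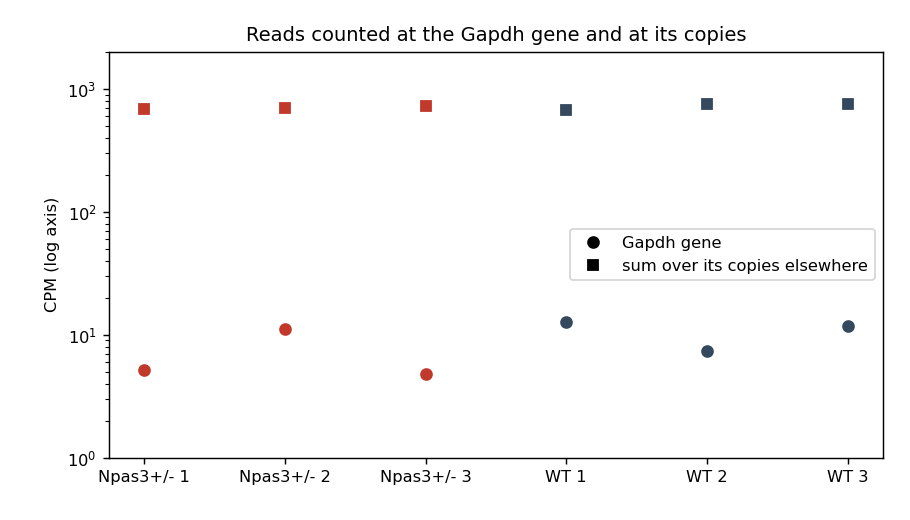
CPM (y axis, log scale) at the Gapdh gene (circles) and summed over its 89 copies (squares) in each library (x axis). The copies lie between 674 and 754 CPM in every library, and the gene between 4.81 and 12.6 CPM.

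Other glycolytic genes kept most of their family's reads at the gene itself, with 90.1% for Eno1, 96.2% for Pgam1, 97.1% for Pgk1 and 99.3% for Pkm. Adding the copies left each of their log2 fold changes within 0.01 of the value at the gene. Pgk1, which makes the first ATP of the pathway and lies on chromosome X, ranged from 141 to 149 CPM in Npas3+/- and from 142 to 159 CPM in WT, with a log2 fold change of -0.08 (SE 0.06). Pgam1, phosphoglycerate mutase, was at 149.6, 167 and 180 CPM in Npas3+/- and at 163, 174 and 165 CPM in WT. Its Npas3+/- values enclosed those of WT, and the log2 fold change was -0.02 (SE 0.07). Eno1, the widespread enolase, had a log2 fold change of -0.07 (SE 0.08), and Eno2, the enolase of neurons, one of -0.02 (SE 0.10). Pkm, pyruvate kinase, ranged from 419 to 438 CPM in Npas3+/- and from 376 to 441 CPM in WT, with a log2 fold change of 0.04 (SE 0.07).

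Ldha and Ldhb encode the subunits of lactate dehydrogenase, the first favouring lactate and the second pyruvate. Ldhb was at 95.1, 93.2 and 106 CPM in Npas3+/- and at 104, 102 and 106 CPM in WT, so that Npas3+/- replicates 1 and 2 lay below WT and replicate 3 at its top. The log2 fold change was -0.08 (SE 0.06) for Ldhb and -0.00 (SE 0.07) for Ldha. The monocarboxylate transporter gene Slc16a3, typical of cells that export lactate, was at 2.0, 1.27 and 1.89 CPM in Npas3+/- and at 1.21, 1.56 and 1.60 CPM in WT. Its groups overlapped at a low level, with a log2 fold change of 0.24 (SE 0.26, edgeR adjusted p = 0.771). Slc16a1, the more widespread transporter, ranged from 19.3 to 25.7 CPM in Npas3+/- and from 23.2 to 28.0 CPM in WT.

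The makeup of each isozyme family was compared as the share of 1 member in the family's summed reads per kb, for 6 families with an exact two-sided permutation test that cannot give a p below 0.1. Hk1 made up 98.0% ± 0.351 of Hk1 and Hk2 in Npas3+/- and 98.0% ± 0.497 in WT (SD, n = 3 each, exact permutation p = 0.8). Pfkp made up 54.9% ± 1.17 and 54.7% ± 1.14 of the phosphofructokinase family (exact permutation p = 1.0). The size of a share depends on the lengths used, since the merged exons of Pfkp span 13.4 kb and its main transcript 4145 bases. As a share of raw reads, Pfkp made up 80.1% in both genotypes. The share of Aldoc in aldolase was 30.2% ± 0.924 in Npas3+/- and 33.1% ± 2.41 in WT (exact permutation p = 0.2, 0.6 adjusted over the 6 families). That of Slc16a3 beside Slc16a1 was 5.73% ± 0.462 and 4.58% ± 0.788 (exact permutation p = 0.2, adjusted 0.6). For both, 1 WT library lay within the Npas3+/- range. Eno2 made up 31.4% ± 1.55 and 30.4% ± 2.44 of Eno1 and Eno2 (exact permutation p = 0.7), and Ldhb 51.3% ± 1.60 and 52.7% ± 2.19 of Ldha and Ldhb (exact permutation p = 0.4). As a share of raw reads, Ldhb made up 33.3% in Npas3+/- and 34.6% in WT.

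**Figure D4:**
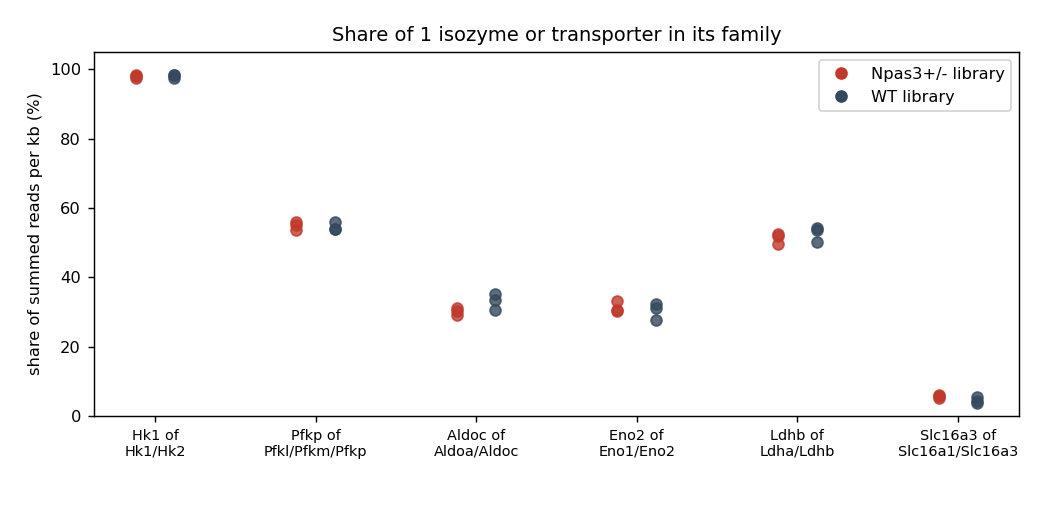
Share of the named gene in the summed reads per kb of its family (y axis, %) in each Npas3+/- and WT library, for 6 families (x axis). Hk1 stays near 98.0% and the other shares overlap between genotypes.

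Among the hypoxia genes that send signals or shift metabolism, Vegfa (ENSMUSG00000023951, chr17:46016993-46032369, minus strand) encodes the growth factor that draws blood vessels into tissue. It was at 61.7, 63.2 and 57.2 CPM in Npas3+/- and at 55.8, 53.2 and 53.5 CPM in WT. Every Npas3+/- library lay above every WT library. The means were 60.7 ± 3.11 and 54.1 ± 1.41 CPM (SD, n = 3 each), a log2 fold change of 0.17 (SE 0.07, edgeR adjusted p = 0.379) that ranged from 0.14 to 0.21 when single libraries were left out. Summed endothelial markers, for the cells that respond to this factor, were 147 to 150.2 CPM in Npas3+/- and 143 to 154 CPM in WT. Of these 10 markers, 4 had a positive and 6 a negative log2 fold change. Kdr was 1 of 2 that lay wholly above WT, and Tek alone lay wholly below it (9.7% and 9.18% of all genes did). Adm, the vessel-widening peptide adrenomedullin, had only 14 to 48 counts per library. Its levels of 0.205, 0.507 and 0.636 CPM in Npas3+/- and 0.355, 0.167 and 0.627 CPM in WT overlapped, and a fold change between 0.414 and 3.32 was within its interval. Pdk1, a kinase that switches off the pyruvate dehydrogenase complex, ranged from 30.4 to 35.0 CPM in Npas3+/- and from 30.1 to 39.4 CPM in WT. Its log2 fold change was -0.11 (SE 0.11).

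Of the targets that act within the cell, Ndrg1 (ENSMUSG00000005125, chr15:66929318-66969640, minus strand), a stress-responsive gene, was at 133, 138 and 122 CPM in Npas3+/- and at 112, 95.5 and 124 CPM in WT. WT replicate 3 overlapped the lowest Npas3+/- library. The means were 131 ± 8.15 and 110.3 ± 14.2 CPM (SD, n = 3 each), with a log2 fold change of 0.25 (SE 0.10, edgeR adjusted p = 0.383), which was 0.15 without WT replicate 2. Bnip3 (ENSMUSG00000078566, chr7:138890836-138909519, minus strand), a mitochondrial protein of mitophagy, was at 36.5, 40.4 and 35.2 CPM in Npas3+/- and at 35.0, 31.1 and 34.7 CPM in WT. The groups did not overlap, but the lowest Npas3+/- and the highest WT library nearly touched. The means were 37.4 ± 2.71 and 33.6 ± 2.20 CPM (SD, n = 3 each), a log2 fold change of 0.15 (SE 0.09, edgeR adjusted p = 0.533) that was 0.10 without Npas3+/- replicate 2 or without WT replicate 2.

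**Figure D5:**
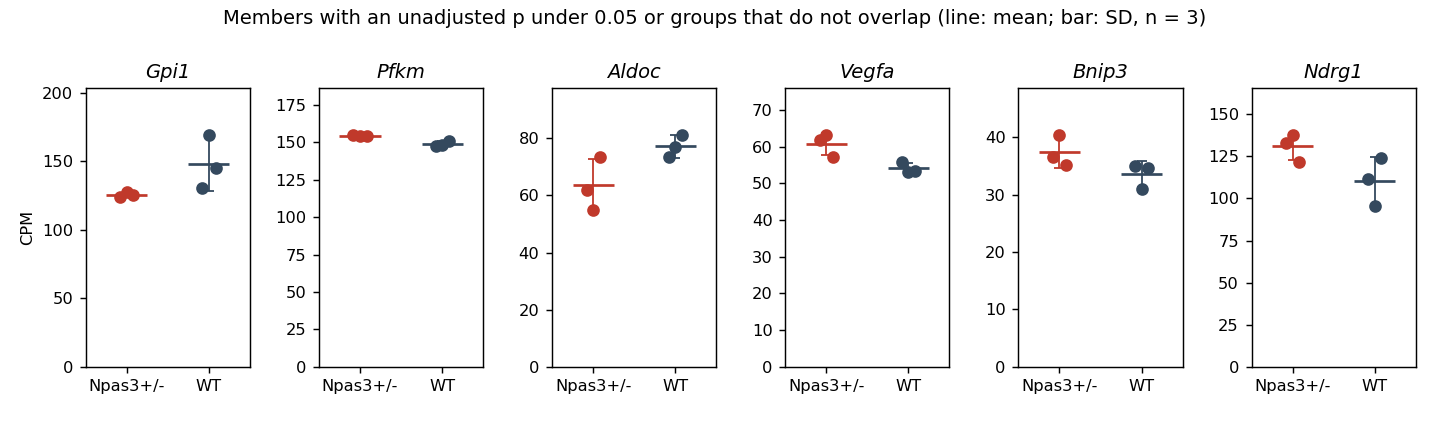
CPM (y axis, from 0) in each Npas3+/- and WT library for the 6 genes with an unadjusted p under 0.05 or with groups that do not overlap; lines are means and bars are SD (n = 3). Gpi1 lies lower and Pfkm, Vegfa and Bnip3 lie higher in every Npas3+/- library, while Aldoc and Ndrg1 overlap.

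Higd1a, a small protein of the mitochondrial inner membrane, went the other way. It was at 17.7, 22.8 and 22.2 CPM in Npas3+/- and at 26.6, 29.0 and 20.7 CPM in WT, with overlapping groups and a log2 fold change of -0.29 (SE 0.15, edgeR adjusted p = 0.506). P4ha1, a collagen prolyl hydroxylase subunit, and Mxi1, an antagonist of Myc, had log2 fold changes of 0.16 (SE 0.12) and 0.12 (SE 0.08). That of P4ha1 was 0.05 without Npas3+/- replicate 2, and that of Mxi1 was 0.06 without Npas3+/- replicate 1. Ankrd37, an ankyrin repeat gene induced by HIF, was low at 1.86 to 2.26 CPM in Npas3+/- and 1.83 to 2.44 CPM in WT.

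The 2 oxygen-sensing genes differed in how even they were across libraries. Egln1, the main prolyl hydroxylase that marks HIF alpha, was at 91.7, 92.0 and 88.6 CPM in Npas3+/- and at 89.0, 91.5 and 90.9 CPM in WT, and the interval of its fold change ran from 0.923 to 1.09. Vhl, which recognises the marked subunit, was at 74.7, 80.2 and 50.3 CPM in Npas3+/- and at 77.8, 79.4 and 82.4 CPM in WT. Npas3+/- replicate 3 stood apart from the other 5 libraries. The log2 fold change of Vhl was -0.22 (SE 0.16, edgeR adjusted p = 0.629) with that library and -0.04 without it.

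Genes around these pathways were described through 4 further lists. Over all genes tested, edgeR listed 6.29% as higher and 5.84% as lower at an unadjusted p under 0.05. Of 26 other tested genes of glycolysis and gluconeogenesis, edgeR called 0 after adjustment and listed 2 as higher and 0 as lower at an unadjusted p under 0.05, and their log2 fold changes had a median of -0.02. These were Tigar, which lowers fructose 2,6-bisphosphate, at 20.4 ± 1.23 CPM in Npas3+/- and 16.5 ± 0.522 CPM in WT, and Pck2, the mitochondrial PEP carboxykinase, at 13.1 ± 0.955 and 9.53 ± 1.49 CPM (SD, n = 3 each). Neither was called by DESeq2.

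Among 11 genes of the pyruvate dehydrogenase complex and its regulators, edgeR called 0 and listed 1 in each direction. Pdk4, a kinase that switches the complex off, was at 2.17 ± 0.716 CPM in Npas3+/- and 4.46 ± 0.550 CPM in WT (SD, n = 3 each). The groups did not overlap. Its log2 fold change of -1.04 (SE 0.26) had an adjusted p of 0.276 in edgeR and 0.0176 in DESeq2. Pdp2, a phosphatase that switches the complex on, was at 18.2 ± 3.98 and 13.2 ± 1.53 CPM, with an adjusted p of 0.372 in edgeR and 0.151 in DESeq2.

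Of 19 HIF subunits, oxygen sensors and ubiquitin ligase genes, edgeR called 0 and listed Egln2 and Arnt as higher at an unadjusted p under 0.05. Egln2, a prolyl hydroxylase, was at 75.9 ± 3.38 CPM in Npas3+/- and 64.9 ± 2.44 CPM in WT, and Arnt, the partner of HIF alpha, at 42.7 ± 1.19 and 37.4 ± 2.94 CPM (SD, n = 3 each). The log2 fold changes were 0.23 (SE 0.06, edgeR adjusted p = 0.276) and 0.19 (SE 0.08, edgeR adjusted p = 0.399). Hif1a, Epas1 and Arnt2, named after their values were seen, had means that differed by less than the larger of the 2 SDs of each gene. Hif1a, the main oxygen-regulated subunit, was at 122 ± 8.88 and 122 ± 9.01 CPM, Epas1, the HIF-2 alpha subunit, at 21.2 ± 3.45 and 21.8 ± 0.605 CPM, and Arnt2, the Arnt relative of neurons, at 373 ± 11.2 and 388 ± 17.2 CPM (SD, n = 3 each). Of 38 other hypoxia-induced genes tested, edgeR called 0 and listed 5 as higher and 2 as lower, and their log2 fold changes had a median of -0.07. Kdm4b, a histone demethylase, was at 162 ± 3.87 CPM in Npas3+/- and 141 ± 5.60 CPM in WT, and Narf at 107 ± 4.71 and 86.5 ± 8.34 CPM (SD, n = 3 each). DESeq2 called Narf alone of this list, at an adjusted p of 0.049. The hypoxia genes described above had a positive median and this broader list a negative one.

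The promoters of 30 of the 32 genes were in the RefSeq table (GRCm38.p6), as 46 windows from 250 bases before to 50 after a transcription start. The core letters ACGTG, at which HIF dimers bind in textbook hypoxia response elements, occurred on either strand in 24 of the 46 windows (52.2%), beside 19.6% of all 32851 windows. The related letters GCGTG occurred in 25 (54.3%), beside 32.4%. A CACGTG holds ACGTG on both strands, which does not alter these counts, since a window counts once however many matches it holds. By gene, 20 of 30 had ACGTG in at least 1 window (66.7%), beside 21.8% of all genes. The 30 genes had more windows per gene than all genes (32851 windows for 27025 genes), which favours them in this count. Some windows of a gene overlap, as for Aldoa, so that the same site was counted in each. The windows of all genes were not matched to these in base content. A match describes letters only, and the genes had been chosen as members of pathways known for this control. The bases before the start of Ldha (chr7:46845554-46845803, plus strand) and Bnip3 (chr7:138909507-138909756, minus strand) are shown as 1 example from each list that holds the palindrome CACGTG, with ACGTG on either strand in capitals. Pfkfb3, Pfkm and Slc16a1 also held this palindrome before a start, which made 5 of the 30 genes.
Ldha: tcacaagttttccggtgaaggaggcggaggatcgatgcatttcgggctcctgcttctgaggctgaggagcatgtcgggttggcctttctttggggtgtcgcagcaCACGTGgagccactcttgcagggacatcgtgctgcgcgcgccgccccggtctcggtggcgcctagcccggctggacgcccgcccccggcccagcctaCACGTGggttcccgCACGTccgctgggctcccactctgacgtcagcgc
Bnip3: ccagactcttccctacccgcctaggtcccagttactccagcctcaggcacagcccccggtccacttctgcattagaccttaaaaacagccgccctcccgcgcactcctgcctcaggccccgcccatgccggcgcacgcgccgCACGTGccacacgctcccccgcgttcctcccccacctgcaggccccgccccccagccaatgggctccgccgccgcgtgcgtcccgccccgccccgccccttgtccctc

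Some counts are uncertain because exons of different genes overlap and the use of strand is not given in the sources used here. Pfkp shared 748 exonic bases with Pitrm1 on the other strand, which was at 48.3 CPM. Pkm shared 767 with Gm49759 on its own strand, at 44.6 CPM, and Gapdh shared 68 with Iffo1 on the other strand, at 22.7 CPM. In the annotation a second identifier also carries the symbol Aldoa, with 2.88% as many counts as the gene described.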

How the data were processed

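Total RNA of postnatal day 0 cortex was sequenced in bulk as 3 Npas3+/- and 3 WT libraries. The authors deposited raw read counts per gene. Per the submitters' processing notes, the tools were Trimmomatic 0.3.8, HISAT2 2.1.0 and featureCounts, and the genome was mm10. The sources used here do not give the annotation, whether strand was used, or how reads with several matches were counted. Gene identifiers, with the version dropped, were matched to GENCODE M21 on this build (53274 of 53379, 105 unmatched).

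The deposited counts entered edgeR 4.0.16 (R 4.3.3): filterByExpr on genotype, TMM scaling, a quasi-likelihood fit with genotype as the only term, and Benjamini-Hochberg adjustment over 21244 genes with a threshold of 0.05. SE was obtained as the size of the log2 fold change over the root of the F statistic. CPM use TMM-scaled library sizes. The biological coefficient of variation was 26.1%. The fit was tested on simulated data. Alternatives were DESeq2 1.42.0, limma-voom (limma 3.58.1), upper-quartile or RLE scaling, other filters, the replicate number as a block, GC correction, each library left out and, added after seeing the data, copies summed.

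The genes and lists were chosen with earlier results of these data known. All 32 genes are named. Values in every library are given for Npas3, for genes with an unadjusted p under 0.05 or without overlap between groups, and for the largest change and the highest level per length in each role. The 2 genes with the smallest p are named from each of 4 pathway lists. Of 9 marker lists, those of pericytes, red blood cells, microglia, meninges and choroid plexus are given under other observations.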

Additional observations from a re-analysis of the deposited data

How the results depend on the processing

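No alternative called any of the 32 genes, and the lowest adjusted p over all 16 was 0.178. Over all genes, 511 were called by DESeq2, 3 with the replicate block and 3 with the GC correction and the block, beside 8, and 7 to 16 when each library was left out (16 without WT replicate 1). Npas3 passed in DESeq2 (-1.04, adjusted p = 0.000175). Over all genes tested, the deviations of same-numbered libraries from their group means had correlations of 0.037, -0.03 and -0.088. With 3 libraries per group, these values cannot show whether libraries were paired, since a pairing may touch only some genes. With the replicate block 2 of the 32 had an unadjusted p under 0.05, beside 4, and 0 to 3 had one when a library was left out. The glycolytic median ranged from -0.075 to 0.0006 and the hypoxia median from 0.0251 to 0.1626 with libraries left out. Of 511 fits of single genes, 485 kept their direction and 26 changed sign, in 11 genes, none with a log2 fold change above 0.23 in size. Egln1 became -0.0085 with upper-quartile scaling, -0.0036 with the 1 CPM filter, which left out Adm, -0.0481 with GC correction and -0.0487 with the replicate block added to it. Hk2 became -0.0103 with GC correction and -0.0010 with the block added, and Pkm -0.0023 with GC correction. Leaving out 1 library moved the log2 fold change by over 1.5 times in 30 of the 32 genes, none of which was called. With single libraries left out, log2 fold changes that crossed 0 ranged from -0.1316 to 0.7888 for Adm, -0.1759 to 0.0251 for Ankrd37, -0.0054 to 0.0269 for Egln1, -0.1032 to 0.0881 for Eno2, -0.1248 to 0.2213 for Hk2, -0.0496 to 0.0593 for Ldha, -0.2439 to 0.1524 for Pfkfb3, -0.075 to 0.0525 for Pgam1, -0.0288 to 0.0847 for Pkm, -0.1952 to 0.0006 for Slc16a1 and -0.0551 to 0.0006 for Tpi1. Differences in isozyme share, in percentage points, ranged from -0.4566 to 1.8718 for Eno2, -0.2498 to 0.2309 for Hk1 and -0.3365 to 0.8403 for Pfkp. The causes were not tested.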

Other observations

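Markers of other cells that a cortical sample can hold were read in the same libraries. Summed over 7 genes, pericyte and smooth muscle markers were at 110.0 to 129 CPM in Npas3+/- and 120 to 129 CPM in WT. Red blood cell markers (8 genes) were at 269 to 300.2 CPM and 255 to 327 CPM, microglial markers (8 genes) at 23.1 to 41.5 CPM and 36.5 to 41.3 CPM, and meningeal markers (6 genes) at 8.65 to 11.3 CPM and 7.89 to 11.7 CPM. In each of these lists the summed ranges overlapped. All 8 microglial markers had a negative log2 fold change, with a median of -0.31. Ptprc among them was at 0.782 ± 0.211 CPM in Npas3+/- and 1.57 ± 0.160 CPM in WT (SD, n = 3 each) without overlap, with a log2 fold change of -1.01 (SE 0.30, edgeR adjusted p = 0.288). Of the 6 choroid plexus markers, 5 were under 1 CPM in every library. The other, Ttr, had 124, 147 and 47 counts in Npas3+/- and 0, 20 and 0 in WT, without overlap (edgeR adjusted p = 0.29). Of the 4 choroid plexus markers tested, Ttr alone had a positive log2 fold change and 3 had a negative one, with a median of -1.135. Epo and Car9, both known for strong induction by hypoxia, were chosen for mention after their values were seen, were under 1 CPM in either genotype and did not pass the filter on low counts.

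Over the 32 genes, WT replicate 2 held the highest value for 10 and the lowest for 7, more extremes than any other library.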
